A study of Mus musculus with 13 samples.

Results

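Dopamine and serotonin receptors were followed through neurons of the mouse retrosplenial cortex and through mouse brain sections. The retrosplenial cortex is a midline cortical area known for its part in navigation and memory. The 6 genes, taken by name, were Drd1 (listed as Drd1a among the cells), Htr1a, Htr1b, Htr1f, Htr2a and Htr2c. Of these, 5 were among the 15114 genes counted in cells and all 6 were among the 32285 genes counted in sections; Htr2a was analysed in sections only. The cells were 765 neurons in 11 samples from 3 untreated wild-type B6 mice. They had been dissected from acute brain slices and pooled across slices, and the cell names give an anterior, medium or posterior dissection. The sections were 2 flash-frozen, 10 µm thick wild-type brain sections stained for NeuN and DAPI and read on Visium slides, an array of spots that can each cover several cells. The labels gave no age, no second genotype and no treatment, so the comparisons below are between neuron classes, dissection levels and zones of spots.

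The D1 receptor, encoded by Drd1, couples to stimulatory G proteins and raises cyclic AMP. Receptors of the serotonin HTR1 group (Htr1a, Htr1b, Htr1f) couple to inhibitory G proteins and lower it, and Htr1a also opens G-protein-gated potassium channels. Htr2a and Htr2c couple to Gq and phospholipase C, which releases calcium from internal stores. In cortex, dopamine and serotonin reach neurons through fibres from midbrain nuclei, so which receptor a pyramidal neuron carries bears on how it responds to each.

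Drd1 and Htr2c were called in opposite directions in 1 neuron class (below), and their upstream sequence is shown for that reason. Each run holds the bases from 250 to 50 before the RefSeq start on GRCm38.p6, 201 bases read in the direction of the gene, and capitals mark the only match to any of 4 motifs searched on both strands.
Drd1, chr13:54055708-54055908, minus strand: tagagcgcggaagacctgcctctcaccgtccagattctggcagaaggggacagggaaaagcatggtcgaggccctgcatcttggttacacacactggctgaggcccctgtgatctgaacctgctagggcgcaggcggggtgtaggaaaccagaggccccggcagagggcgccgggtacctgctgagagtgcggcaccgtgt
Htr2c, chrX:146962263-146962463, plus strand: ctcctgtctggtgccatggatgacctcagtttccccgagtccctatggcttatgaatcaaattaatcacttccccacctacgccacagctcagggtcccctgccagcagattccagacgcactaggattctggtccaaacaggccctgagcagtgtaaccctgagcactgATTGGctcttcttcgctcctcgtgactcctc
The table listed 2 starts for Drd1, of which the farthest upstream was used. The Drd1 window was 63.2% G or C and the Htr2c window 54.7%, against a median of 51.7% over the 32851 windows. The motifs were TATAAA, present in 9.18% of all windows, CCAAT in 28.6%, GGGCGG in 24.8% and TGACGTCA in 0.849%. CCAAT matched the Htr2c window once on the other strand, where it reads as the capitals shown, and no motif matched the Drd1 window. These are letter matches in 1 window a gene and describe nothing more.

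Total counts per cell sample ran from 2306470 to 15974543. The animals differed in depth, whose median cells held 65843 (animal 1), 132797 (animal 2) and 185995 counts (animal 3). The 1973 spots held far fewer counts each, with a median of 8266.5 in 1022 spots of section S4 and 6705 in 951 spots of section S8. Slc17a7, the vesicular glutamate transporter of cortical excitatory neurons, was counted in 756 of 765 cells, and the inhibitory neuron gene Gad1 stood at 0.404 CPM (counts scaled to a common library total). Myelin RNA was present, with Mbp counted in 63.8% of cells at 90.5 CPM, and its part in the receptor values was not tested.

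Cells were clustered without the genes of the dopamine and serotonin list and named by fixed markers. This gave 241 superficial neurons marked by Calb1, 122 neurons marked by Tnnc2 and Scnn1a, 93 layer 5 IT-like, 141 layer 5 ET-like, 75 layer 6 IT-like and 71 layer 6 corticothalamic-like neurons. IT neurons project within the telencephalon and ET neurons beyond it. Another 11 layer 6b-like cells and 11 cells of an unnamed cluster (cluster 10) were too few for the tests. By the rule on the mean of the other clusters, 3 of 4 markers of the superficial class also counted for the layer 6 IT-like cluster, and 3 of 4 ET markers for cluster 6, the larger of the layer 5 IT-like clusters. For each class the counts of an animal's cells were summed, and edgeR's quasi-likelihood test set each class against the average of the remaining classes, blocking on animal. Calls needed a log2 difference of at least 1 and a p below 0.05 after Benjamini-Hochberg adjustment over 13120 genes. Levels are CPM of the sums, given as mean ± SD over 3 animals. The fitted difference is not printed where another class held 3 counts or fewer, since it then depends on a constant added in the fit; the ratio of mean CPM stands in its place.

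Among the tested classes Drd1a was high in layer 6 IT-like neurons. In their sums it stood at 37.5, 43.7 and 28.6 CPM in animals 1, 2 and 3 (36.6 ± 7.58, SD, n = 3). In the other 5 classes it was at or near 0, with a highest single value of 3.19 CPM in the corticothalamic-like sum of animal 2. All 3 layer 6 IT-like sums therefore lay above every sum of the other classes. The mean was 85.5 times the mean of the other classes (0.428 CPM), with an edgeR adjusted p of 2.32e-06, and any difference among classes gave 1.69e-05. Against all other cells of the same animal, a comparison added after the data were seen, the log2 difference was 4.31 (SE 0.52, edgeR adjusted p = 0.0035), where 3.38% of all genes were called. Drd1a was 1 of 2 tested members called in this class, Htr2c being the other, of 4 tested; over all genes 5.12% were called there in either direction. All 28 Drd1a counts outside the layer 6 IT-like class, among the 6 tested classes, came from animal 2. Outside that class too few sums reached the level set by the filter on low counts. Drd1a was thus tested because of the class in which it was called, and its p-value is not independent of that choice. The call was also made without that filter.

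Drd1a was also counted in the layer 6b-like cells, a thin sheet of neurons at the base of the cortex. It was present in 10 of 11 of these cells (90.9%, 95% Clopper-Pearson interval 58.7 to 99.8%) at 93.8 CPM in animal 1 and 94.5 CPM in animal 2, and animal 3 gave no such cell. The layer 6b-like level was thus above that of the layer 6 IT-like cells in both animals, but with 4 and 7 cells these sums were under the minimum of 10 cells and were not tested. Cluster 10 held 47 Drd1a counts in 2 of 11 cells, both from animal 3. Over all 765 cells Drd1a had 625 counts in 53 cells, and the 5 highest cells held 35.5% of them. After each cell was thinned to 54512 counts, 27 of 65 layer 6 IT-like cells had a Drd1a count (41.5%, interval 29.4 to 54.4%), with shares of 28.6, 34.4 and 53.8% in animals 1, 2 and 3. The animal 1 share rests on fewer than 10 cells. At the same depth Drd1a was counted in 1 of 218 superficial, 0 of 115 Tnnc2 Scnn1a and 2 of 84 layer 5 IT-like cells. It was also counted in 1 of 135 layer 5 ET-like and 1 of 54 corticothalamic-like cells. The intervals treat the pooled cells as independent draws and do not cover the spread between animals. The sources used here do not say whether the counts are reads or molecules.

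**Figure D1:**
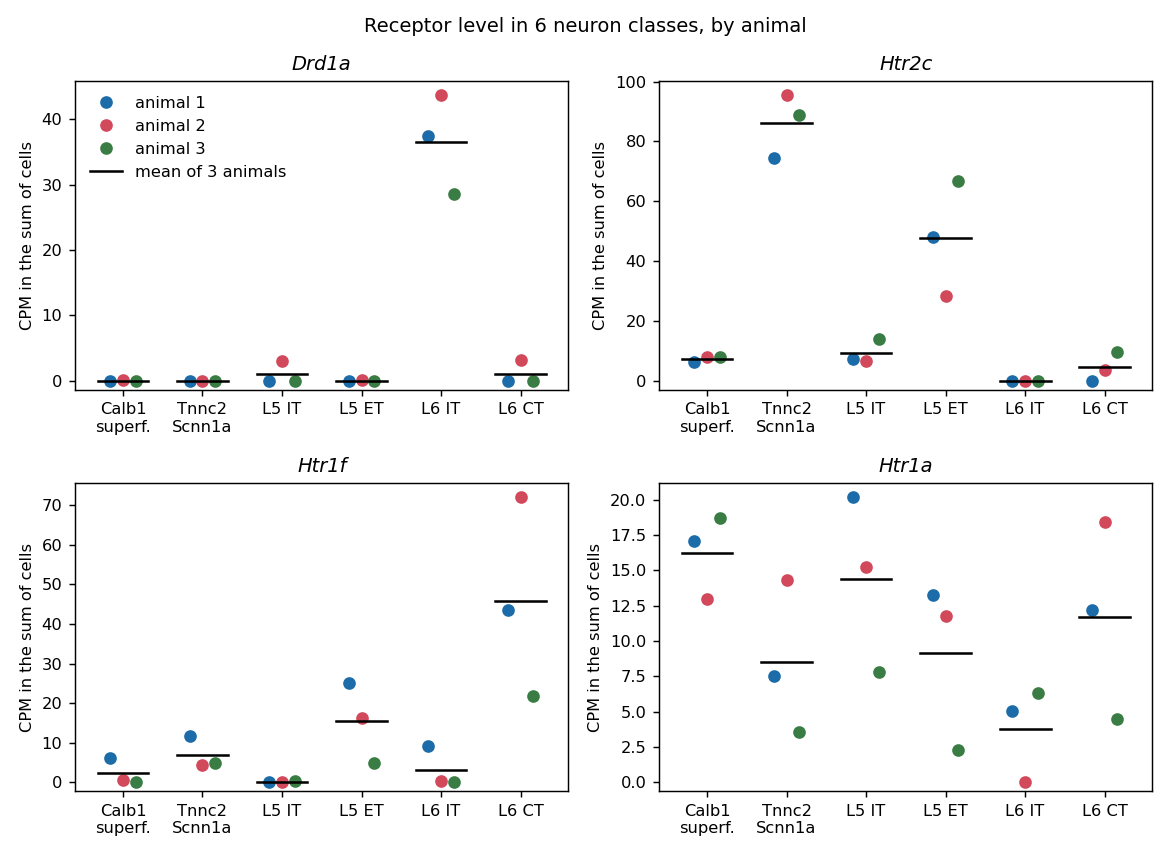
Level of 4 receptors (CPM, linear axis) in 6 neuron classes, 1 point per animal and a line for the mean of 3 animals. Drd1a stood at 28.6 to 43.7 CPM in the layer 6 IT-like (L6 IT) sums and at 3.19 or less elsewhere, Htr2c was at 0 in the same sums, and the Htr1a values overlapped among classes except that layer 6 IT-like values lay below the superficial and layer 5 IT-like ones.

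Htr2c, the most abundant member in the cells with 3646 counts in 192 cells, had the opposite place. It was highest in the Tnnc2 Scnn1a neurons at 74.3, 95.4 and 88.7 CPM in animals 1, 2 and 3 (86.1 ± 10.8). The layer 5 ET-like neurons followed at 48.2, 28.5 and 66.8 CPM (47.8 ± 19.2). Superficial neurons (7.35 ± 1.08), layer 5 IT-like neurons (9.25 ± 4.002) and corticothalamic-like neurons (4.43 ± 4.94) were lower, and their ranges overlapped. The layer 6 IT-like sums held 0 counts of Htr2c in all 3 animals. The lowest Tnnc2 Scnn1a value exceeded the highest layer 5 ET-like value, and the lowest ET-like value exceeded every value of the other 4 classes.

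The Tnnc2 Scnn1a mean of Htr2c was 6.26 times that of the other classes (edgeR adjusted p = 2.82e-07). Against all other cells of the same animal the log2 difference was 2.28 (SE 0.26, edgeR adjusted p = 0.00106), where 8.69% of all genes were called. Htr2c was the 1 tested member called in this class, where 8.3% of all genes were called. The ET-like difference was called against the mean of the other classes (edgeR adjusted p = 1.76e-05, 2 of 4 members called beside 4.82% of all genes), but not against all other cells (log2 0.71, SE 0.27, edgeR adjusted p = 0.174, 5.33% of all genes called). The absence from layer 6 IT-like cells was called as lower (edgeR adjusted p = 2.27e-05). At equal depth 70 of 115 Tnnc2 Scnn1a cells had a Htr2c count (60.9%, interval 51.3 to 69.8%), with 60, 60.5 and 61.7% in animals 1, 2 and 3. The layer 6 IT-like share was 0 of 65 cells, which allows up to 4.62%. The layer 5 ET-like share differed between animals, at 42.1, 20.3 and 66.7%.

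**Figure D2:**
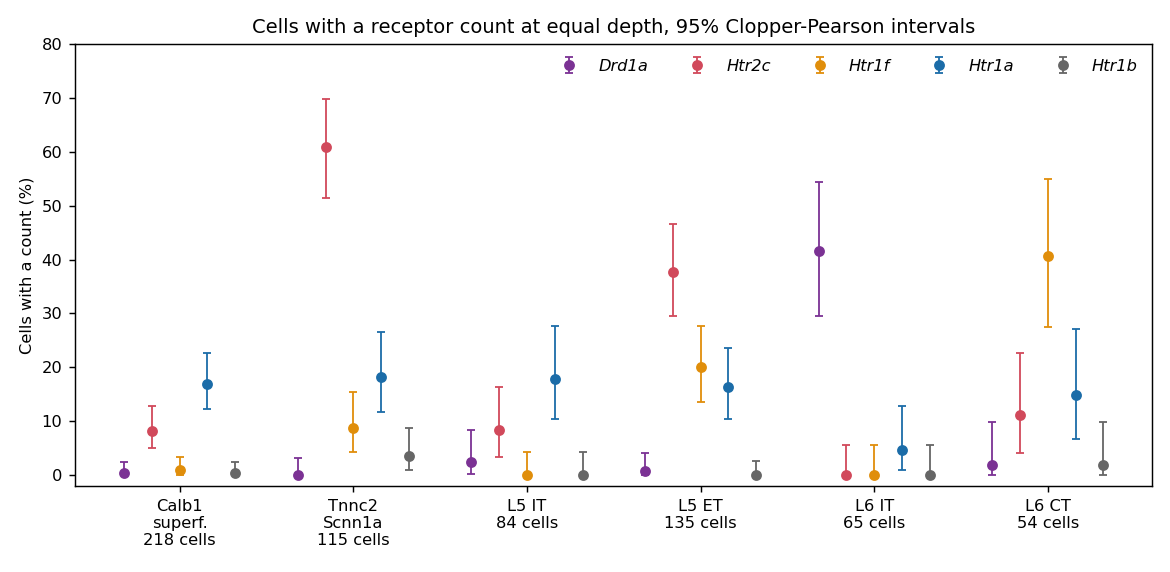
Share of cells with at least 1 count of each of 5 receptors after thinning every cell to 54512 counts, by neuron class, with 95% Clopper-Pearson intervals over the pooled cells of 3 animals. Htr2c reached 60.9% in Tnnc2 Scnn1a cells, Drd1a 41.5% in layer 6 IT-like cells and Htr1f 40.7% in corticothalamic-like cells.

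Htr2c was uneven inside 2 of the classes. The layer 5 ET-like class joined cluster 3, whose 76 cells all came from posterior dissections, and cluster 7, whose 65 cells came from all 3 levels. Htr2c was counted in 45 of 65 cells of cluster 7 (69.2%, 62.8 CPM) and in 15 of 76 cells of cluster 3 (19.7%, 13.9 CPM). Clusters 7 and 3 took 10 and 33 cells from animal 1, 24 and 41 from animal 2 and 31 and 2 from animal 3, and the part of this mix in the animals' ET-like levels was not tested. Over sums of at least 10 cells the difference between these clusters was not called (log2 1.89 for cluster 7 minus cluster 3, SE 0.87, edgeR adjusted p = 0.640), where 0.203% of 13318 genes were. Among superficial neurons, cluster 8 held Htr2c in 17 of 38 cells (44.7%, 62.4 CPM) and cluster 1 in 15 of 203 (7.39%, 1.94 CPM). This difference was called, with a log2 value of 4.93 for cluster 8 minus cluster 1 (SE 0.88, edgeR adjusted p = 0.0077), beside 1.35% of all genes and 1 of the 4 tested members. Cluster 8 was led by Slc17a6, Cxcl14 and Aldoc among others, with a median depth of 77921.5 counts (144964 in cluster 1). Both contrasts between clusters were added after the data were seen, and animal 1 had only 2 cells in cluster 8.

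**Figure D3:**
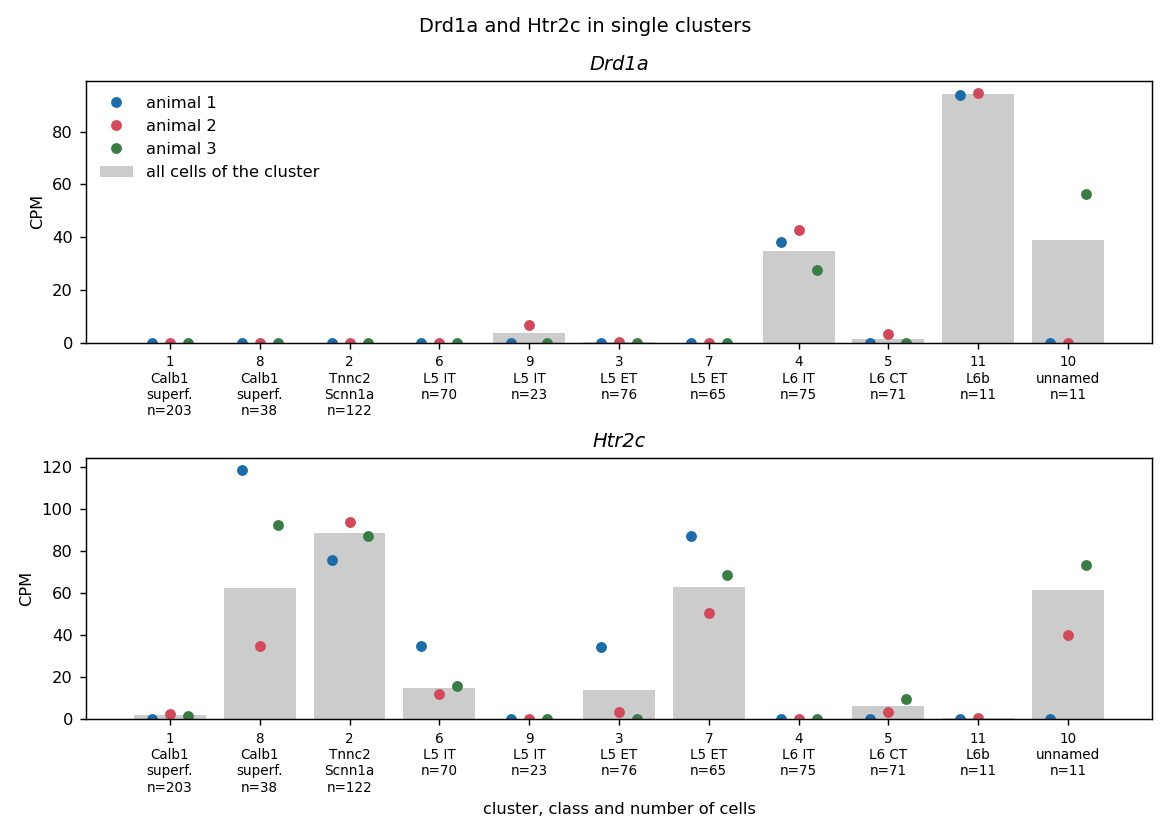
CPM of Drd1a and Htr2c in each of the 11 clusters (grey bars, all cells of the cluster; points, single animals, with no point where an animal gave no cell). Drd1a was high in clusters 4, 11 and 10, and Htr2c in clusters 2, 7, 8 and 10; clusters 10 and 11 hold 11 cells each.

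Htr2a, the Gq-coupled receptor through which classical hallucinogens act, was read in sections only, and its values are with those of the zones below.

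Htr1f, an inhibitory receptor targeted by some migraine drugs, was highest in the corticothalamic-like neurons of layer 6 at 43.5, 72.0 and 21.7 CPM in animals 1, 2 and 3 (45.8 ± 25.2). This was 8.16 times the mean of the other classes (edgeR adjusted p = 0.000118), and Htr1f was the 1 member called in this class, where 6.39% of all genes were called. Against all other cells the log2 difference was 3.06 (SE 0.60, edgeR adjusted p = 0.0392), where 2.28% of all genes were called. The layer 5 ET-like sums stood at 25.01, 16.2 and 5.02 CPM (15.4 ± 10.0), which was called as higher at an edgeR adjusted p of 0.034. That call was lost without animal 2 (edgeR adjusted p = 0.394) and without animal 3 (0.0632), and also without the animal block (0.0833), with thinned counts (0.0637) and against all other cells (log2 1.11, SE 0.33, edgeR adjusted p = 0.0865). The thinned fit also lacked the layer 6 IT-like and corticothalamic-like classes, so its average of the other classes was a different one. The Tnnc2 Scnn1a sums held 11.8, 4.39 and 4.80 CPM, and the layer 5 IT-like sums held 3 counts in all. At equal depth Htr1f was counted in 22 of 54 corticothalamic-like cells (40.7%, interval 27.6 to 55.0%) and 27 of 135 ET-like cells (20%, interval 13.6 to 27.7%). None of 65 layer 6 IT-like cells and none of 84 layer 5 IT-like cells had a count, which allows 4.62 and 3.57%.

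Within its leading class Htr1f spanned 21.7 to 72.0 CPM over the animals, where Htr2c spanned 74.3 to 95.4 in its own. Animal 3, the most deeply counted, had the lowest Htr1f value in both the corticothalamic-like and the ET-like sums. Over all its thinned cells animal 3 had a Htr1f count in 5.26%, animal 2 in 10.1% and animal 1 in 18.6%, and the part of depth, dissection or class makeup in this order was not tested.

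Htr1a, the inhibitory receptor that hyperpolarises pyramidal neurons, was spread over all 6 classes. Mean levels ran from 3.80 ± 3.35 CPM in layer 6 IT-like to 16.3 ± 2.98 CPM in superficial neurons, with layer 5 IT-like neurons at 14.4 ± 6.25, corticothalamic-like at 11.7 ± 7.01, ET-like at 9.13 ± 5.94 and Tnnc2 Scnn1a neurons at 8.49 ± 5.41. Neighbours in this order overlapped in every case, but the layer 6 IT-like values, 0 to 6.32 CPM, lay below all superficial (12.9 to 18.7) and all layer 5 IT-like values (7.78 to 20.2). No class was called for Htr1a, and any difference among classes gave an edgeR adjusted p of 0.636, where 20.1% of all genes passed. At equal depth 107 of 688 cells had a Htr1a count (15.6%), and the shares ran from 4.62% of layer 6 IT-like cells to 18.3% of Tnnc2 Scnn1a cells. None of the 4 tested members was called in the superficial class (4.13% of all genes) or in the layer 5 IT-like class (2% of all genes). Against all other cells, 3 members were called as lower in superficial neurons beside 4.96% of all genes: Htr2c (log2 -2.42, SE 0.27, edgeR adjusted p = 0.00157), Htr1f (log2 -3.65, SE 0.85, edgeR adjusted p = 0.0357) and Drd1a, with 1 count there (edgeR adjusted p = 0.00476). For Htr2c the direction turned, since the fit against the average of the classes gave log2 0.58 (SE 0.42, edgeR adjusted p = 0.584); in that average each class counts equally, the layer 6 IT-like sums with 0 counts included. Drd1a was also called as lower against all other cells in ET-like (edgeR adjusted p = 0.0054) and Tnnc2 Scnn1a neurons (edgeR adjusted p = 0.00983), and no member was called in layer 5 IT-like neurons, where 0.597% of all genes were.

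Htr1b, a presynaptic inhibitory receptor in many neurons, was rare. It had 32 counts in 10 of 765 cells and did not pass the filter on low counts. Of these, 23 counts in 6 cells were in the Tnnc2 Scnn1a class, at 2.10, 0.451 and 1.20 CPM in animals 1, 2 and 3. ET-like and layer 6 IT-like sums held 0 counts.

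The remaining receptors counted in cells were Drd4, Drd5, Htr4, Htr5a, Htr5b, Htr6 and Htr7. Htr7, which couples to stimulatory G proteins, was highest in superficial neurons at 34.8, 30.7 and 23.6 CPM (29.7 ± 5.64, edgeR adjusted p = 0.00687), above all values elsewhere. That call was lost without animal 2 (edgeR adjusted p = 0.134), in a fit left with 2 animals. Htr5b was highest in layer 5 IT-like neurons at 20.2, 6.44 and 8.39 CPM (11.7 ± 7.44, edgeR adjusted p = 0.00464), and 121 of its 175 counts were in cluster 6. Drd5, the other stimulatory dopamine receptor, was called in the same class at 11.3, 5.73 and 4.01 CPM (7.01 ± 3.82, edgeR adjusted p = 0.0167). Of its 156 counts over all cells, 71 were in 6 of the 23 cells of the other layer 5 IT-like cluster, cluster 9, and 41 in 3 of the 11 layer 6b-like cells. Htr4, which also raises cyclic AMP, was called in ET-like neurons at 3.53 ± 1.57 CPM (edgeR adjusted p = 0.0115), from 88 counts. Of these, 73 were in 8 of the 65 cells of cluster 7 and 15 in 2 of the 76 cells of cluster 3. Htr4 passed the filter on low counts only through the ET-like sums, and Htr5b only through the layer 5 IT-like sums. Each was thus tested because of the class in which it was called. Both calls were also made without that filter. Drd4, an inhibitory dopamine receptor, was called in superficial neurons at 4.82 ± 3.22 CPM (edgeR adjusted p = 0.0415), from 12 positive cells among all 765, although its layer 5 IT-like mean was as high (5.76 ± 8.36). Leaving out single animals ended the Drd4 and Drd5 calls for each of the 3 (edgeR adjusted p of 0.145 to 0.208 for Drd4 and 0.0807 to 0.141 for Drd5). The Htr4 call was lost without animal 1 or 3 (edgeR adjusted p = 0.0716 and 0.0811) and so was that of Htr5b (0.0613 and 0.0802), and none of these 4 was called against all other cells. Htr5a was at 11.002 ± 1.48 CPM in Tnnc2 Scnn1a neurons without a call (edgeR adjusted p = 0.167), and Htr6 had none in any class.

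The wider list held 75 genes of dopamine and serotonin signalling, of which 60 were counted in cells and 58 were tested, 11 of them receptors. Higher and lower calls were 3 and 0 in superficial, 6 and 3 in Tnnc2 Scnn1a, 3 and 3 in ET-like, 3 and 0 in layer 5 IT-like, 3 and 5 in layer 6 IT-like and 2 and 3 in corticothalamic-like neurons. Over all 13120 genes, in the same order of classes, they were 424 and 118, 654 and 435, 401 and 232, 224 and 38, 425 and 247, and 390 and 448. The list's median log2 difference ran from -0.08 to 0.07 over the 6 classes, and that of all genes from -0.05 to 0.07. In layer 6 IT-like neurons, where Drd1a was high, Gnal, the stimulatory G protein alpha subunit that D1 receptors use in striatum, was 131 ± 48.3 CPM against a mean of 23.2 CPM in the other classes (log2 2.93, SE 0.36, edgeR adjusted p = 4.32e-05). Ppp1r1b, which encodes the dopamine-regulated phosphatase inhibitor DARPP-32, was lower there at 29.8 ± 1.58 against 100.4 CPM (log2 -1.56, SE 0.26, edgeR adjusted p = 0.000787). The adenylyl cyclase genes Adcy8 and Adcy2 were lower as well (log2 -3.49, SE 0.68, and -1.72, SE 0.23), as was Rgs4 (log2 -2.37, SE 0.33), while Rgs2 was higher (log2 1.19, SE 0.22).

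In Tnnc2 Scnn1a neurons, where Htr2c was high, Adcy8 was higher (log2 3.52, SE 0.40, edgeR adjusted p = 7.9e-06). Rgs4, which speeds the switching-off of Gi and Gq signals, stood at 1786.5 ± 257 against 469.8 CPM (log2 2.32, SE 0.23, edgeR adjusted p = 1.53e-06), and Rgs14 was also higher (log2 1.45, SE 0.33). S100a10, whose protein binds HTR1B and HTR4, was lower (log2 -1.49, SE 0.39), as was Adcy9 (log2 -1.12, SE 0.29). Tph2, the serotonin synthesis enzyme of raphe neurons, was at 27.3 ± 11.1 CPM there against a mean of 0.433 CPM elsewhere (edgeR adjusted p = 0.000153). In ET-like neurons Gnal (log2 -2.92, SE 0.54), Pde1b (log2 -1.58, SE 0.40) and S100a10 (log2 -1.35, SE 0.38) were lower. In layer 5 IT-like neurons S100a10 was higher at 257.5 ± 35.1 against 20.2 CPM (log2 3.84, SE 0.28, edgeR adjusted p = 4.23e-07). Corticothalamic-like neurons, where Htr1f was high, had more Ppp1r1b (190.3 ± 58.9 against 68.3 CPM, log2 1.62, SE 0.21) and less Prkacb, Rgs4 and Rgs7 (log2 -1.21, -1.75 and -1.69). Plcb4, a phospholipase C gene, was higher in superficial neurons (log2 1.08, SE 0.23).

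Over the 18 sums of animal and class, the genes of 11081 whose log2 CPM was most like that of each tested member were taken by Pearson's r, as a description. The sums share 3 animals, and each leading class sets much of the value. For Drd1a these were Osr1 (r = 0.94), itself a marker used to name layer 6 IT-like cells, Iqca and Nnat (both r = 0.84). For Htr2c they were Nrsn2 (0.96), Nckipsd (0.92) and Clcn2 (0.91), each with its 2 highest means in Tnnc2 Scnn1a and ET-like neurons. For Htr1f they were Cdc5l, Ube4b and Rgma (0.78 each), and for Htr1a Fbxl19 (0.81), Phf13 (0.80) and Tgds (0.79).

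Most cells had counts of 0 or 1 member. At equal depth 46.4% of 688 cells had a count of any of the 5 members; 369 cells had none, 274 had 1 member, 37 had 2 and 8 had 3 or more. The share with any member was 70.4% in Tnnc2 Scnn1a, 65.2% in ET-like, 51.9% in corticothalamic-like, 44.6% in layer 6 IT-like, 27.1% in superficial and 26.2% in layer 5 IT-like cells. Htr1a and Htr2c were counted together in 14 Tnnc2 Scnn1a cells, where the product of their single shares gives 12.8 cells. Htr1f and Htr2c were together in 10 ET-like cells, where the product gives 10.2, but 8 of those 10 were from animal 1. In superficial neurons Htr1a and Htr2c were together in 0 of 218 cells, where the product gives 3.06. Drd1a shared no cell with Htr2c in layer 6 IT-like neurons, since that class had no Htr2c count. No test was made of these pairs.

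The dissection level was compared with the animal as a block, posterior or medium minus anterior, over all cells and within the 5 classes with enough cells. None of 27 member contrasts was called by edgeR, 2 had an unadjusted p under 0.05 and DESeq2 called 1. Of all genes edgeR called 0.103% for posterior and 0.00734% for medium over all cells, 0.00888% for posterior within layer 6 IT-like neurons and 0% within the superficial, Tnnc2 Scnn1a, layer 5 IT-like and corticothalamic-like classes. Over all cells the posterior minus anterior log2 difference was 0.03 for Drd1a (SE 0.94), -0.0009 for Htr1f (SE 0.38), -0.23 for Htr1a (SE 0.51) and 0.24 for Htr2c (SE 0.65). The makeup of classes differed between levels, with 104 of 141 ET-like cells posterior and 7 of 71 corticothalamic-like cells posterior.

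Within Tnnc2 Scnn1a neurons Htr2c differed little, at 0.08 for posterior (SE 0.38) and 0.09 for medium (SE 0.33) on the log2 scale. Within layer 6 IT-like neurons Drd1a was 8.54, 33.9 and 24.2 CPM in the anterior and 79.4, 49.2 and 36.5 CPM in the posterior cells of animals 1, 2 and 3. It was thus higher in the posterior cells of all 3 animals, by a log2 difference of 1.31 (SE 0.82) that was not called (edgeR unadjusted p = 0.135). Within layer 5 IT-like neurons Htr2c was higher in posterior cells by 4.34 (SE 1.70, edgeR unadjusted p = 0.025, adjusted p = 0.999) and in medium cells by 3.68 (SE 1.67). DESeq2 gave the posterior contrast an adjusted p of 0.0490. Cluster 9, the layer 5 IT-like cluster with 0 Htr2c counts, gave 17 of its 23 cells to the anterior level, and the part of this mix was not tested. For ET-like neurons no fit was possible, as only 1 animal had enough cells at both levels. In their cluster 7, Htr1f was counted in 13 of 19 anterior, 6 of 18 medium and 3 of 28 posterior cells, but 23 of the 28 posterior cells were from animal 3 and 13 of the 19 anterior cells from animal 2.

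**Figure D4:**
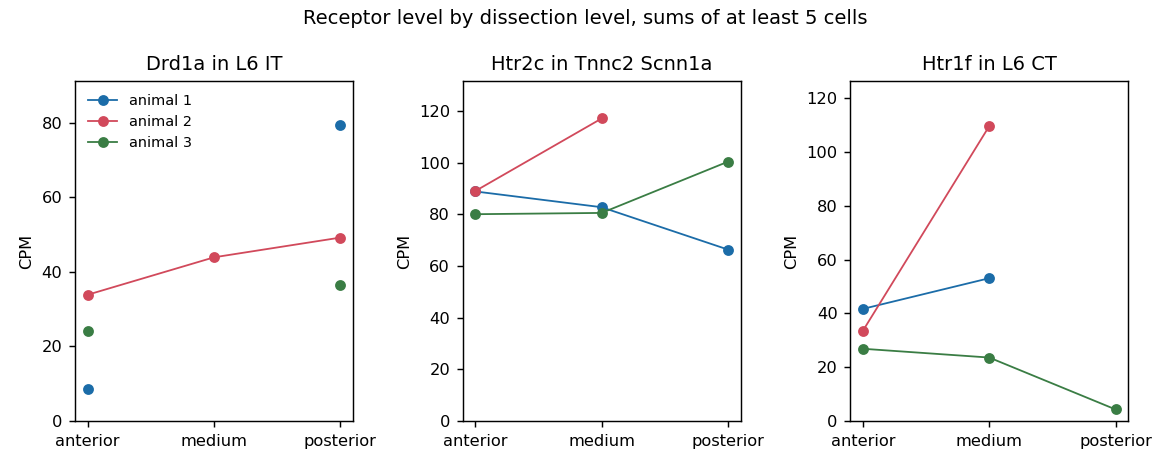
CPM of Drd1a in layer 6 IT-like, Htr2c in Tnnc2 Scnn1a and Htr1f in corticothalamic-like (L6 CT) neurons by dissection level, 1 line per animal, for sums of at least 5 cells. Drd1a was higher in the posterior than in the anterior sum of each animal (8.54 to 79.4, 33.9 to 49.2 and 24.2 to 36.5 CPM), without a call, and Htr2c showed no common direction.

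In the sections, spots were clustered without the list genes into 10 zones named by their leading genes. The labels call these samples brain sections, and the zones were not assigned to brain areas, so a zone need not lie in retrosplenial cortex. Each zone was tested against the average of the other 9 zones, blocking on section, over 10629 genes. A lower level in a zone can mean fewer cells of a type or less RNA per cell, which spots cannot tell apart. Values are mean CPM ± SD over 2 sections. Whether the sections come from different animals is not stated. The block removes a shift common to all zones of a section, so these p-values measure how zone differences vary between the 2 sections. They cannot be read as a spread between animals. Zones 5, 6 and 7 depended on the starting seed of the clustering: with 5 other seeds, 49.5 to 80.5% of the spots of zone 5, 62.03 to 100% of zone 6 and 79.7 to 96.8% of zone 7 lay in 1 zone again. At least 91.5% did so for each of the other 7 zones, but zones 8 and 10 could take in other spots and then made up as little as 54.9 and 66.7% of the zone they lay in. Zone 5 drew 152 of its 190 spots from section S4 and zone 7 drew 139 of its 187 from S8. Of the members, Htr2c (526 counts), Htr2a (331), Htr1a (191), Drd1 (92) and Htr1b (80) were tested, and Htr1f, with 32 counts over all 1973 spots, did not pass the filter on low counts.

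Htr2c was highest in zone 3, led by Nnat, Calb2, Trh and Dlk1 among others, at 102.9 CPM in section S4 and 98.3 in S8 (100.6 ± 3.25; log2 2.36, SE 0.17, edgeR adjusted p = 9.21e-14). Zone 1, led by Tshz2, Cbln1 and Slc17a6, stood at 67.1 and 71.5 CPM (69.3 ± 3.15; log2 1.76, SE 0.18, edgeR adjusted p = 3.51e-09). Tshz2, a gene of granular retrosplenial cortex, was at 252.8 CPM in zone 1 and 19.5 in the other zones. The 10 leading genes of zone 1 also included Hsd11b1, a marker of the Tnnc2 Scnn1a class, and Parm1, a marker of the ET-like class. They held no other marker of either class, and the 10 leading genes of zone 3 held none. Zone 5, led by Kcng1, Hpcal1, Penk and Wfs1, was called as higher too, at 47.4 and 71.8 CPM (59.6 ± 17.3; log2 1.37, SE 0.22, edgeR adjusted p = 5.58e-05). The values of zone 3 lay above all others, and those of zones 1 and 5 overlapped. Zone 7 stood at 31.9 ± 2.40, zone 9, led by haemoglobin genes, at 31.05 ± 16.2 and zone 10, led by Ptgds, Myoc and Gfap, at 21.9 ± 1.99 CPM, without a call.

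Htr2c was called as lower in 4 zones. In zone 4, led by Rprm, Foxp2 and the myelin gene Mbp among others, it stood at 4.52 and 8.27 CPM (log2 -2.03, SE 0.35, edgeR adjusted p = 5.49e-05). In zone 2, led by Rasgrf2, Cux2 and Lamp5, it stood at 9.36 and 9.98 CPM (log2 -1.36, SE 0.30, edgeR adjusted p = 0.0021). Zone 6, led by Myl4, Deptor and Fezf2, had 11.1 and 7.74 CPM (log2 -1.36, SE 0.33, edgeR adjusted p = 0.0173), and zone 8, led by Rorb and Rspo1, had 7.55 and 10.96 CPM (log2 -1.46, SE 0.37, edgeR adjusted p = 0.0118). These 4 zones overlapped among themselves, except that zone 4 lay below zone 2. DESeq2 made neither of the calls in zones 6 and 8, and that of zone 6 was also lost without the section block. Choroid plexus is known for very high Htr2c. Of its markers, Ttr ran from 1.24 CPM in zone 5 to 24.6 in zone 10, with 21.7 in zone 1 and 4.15 in zone 3, Kl from 0 to 4.88, Otx2 from 0 to 1.98 and Folr1 from 0 to 1.48 CPM, the last 2 being highest in zone 1. The part of choroid plexus RNA in the Htr2c values was not tested.

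Htr2a took another pattern. It was highest in zone 8, led by the layer 4 and 5 gene Rorb, at 46.8 and 38.4 CPM (42.6 ± 5.98; log2 1.099, SE 0.29, edgeR adjusted p = 0.0165), a call lost with DESeq2 and without the section block. It was lowest in zone 1 at 12.4 and 3.97 CPM (8.18 ± 5.94; log2 -1.53, SE 0.38, edgeR adjusted p = 0.00498), so Htr2a was low in a zone where Htr2c was high, and high in a zone where Htr2c was low. With 1 of the 5 other seeds, which gave 9 zones of which 8 had at least 10 spots in both sections, Htr2a was called in neither (log2 -0.56 in zone 1, edgeR adjusted p = 0.244, and 0.88 in zone 8, edgeR adjusted p = 0.0217 but under the size needed). Zones 7 and 6 were at 35.7 ± 11.8 and 32.7 ± 13.4 CPM, without a call. Zones 10, 9, 2, 5, 4 and 3 ran from 27.8 down to 13.8 CPM, with zone 5 at 30.4 CPM in S4 and 4.49 in S8. Section S4 had Htr2a in 184 of 1022 spots and S8 in 105 of 951, while Htr2c was in 19.8% of spots of both.

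Drd1 was highest in zone 7, at 20.9 CPM from 9 counts in S4 and 13.7 CPM from 11 counts in S8 (17.3 ± 5.10; log2 1.63, SE 0.47, edgeR adjusted p = 0.0432). Zone 7 was led by Nr4a2, Ccn2, Rab3c, Gm42418 and Lars2 among others. Ccn2 is a marker of layer 6b, while the layer 6b markers Nxph3, Nxph4 and Cplx3 were not among the zone's 10 leading genes. All other zones held 12.1 CPM of Drd1 or less, below both values of zone 7. Only the sums of zone 7 reached the level set by the filter on low counts. Drd1 was thus tested because of the zone in which it was called, and its p-value is not independent of that choice. The call was also made without that filter. Of the 187 spots of zone 7, 18 had a Drd1 count (9.63%, interval 5.81 to 14.8%), against 4.46% of all 1973 spots. The call was lost without the section block (edgeR adjusted p = 0.123) and with 1 of the 5 other seeds (log2 1.05, edgeR adjusted p = 0.165). In the zones of the other 4 seeds Drd1 did not pass the filter on low counts. Of the markers of striatal medium spiny neurons, Drd2 was also highest in zone 7, with 4 of its 12 counts (3.08 CPM against 0.592 in the other zones). Adora2a stood at 0.769 against 0.813 CPM, Gpr6 at 3.08 against 2.74 and Rgs9 at 6.92 against 6.28, and the part of such cells in the Drd1 value was not tested.

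**Figure D5:**
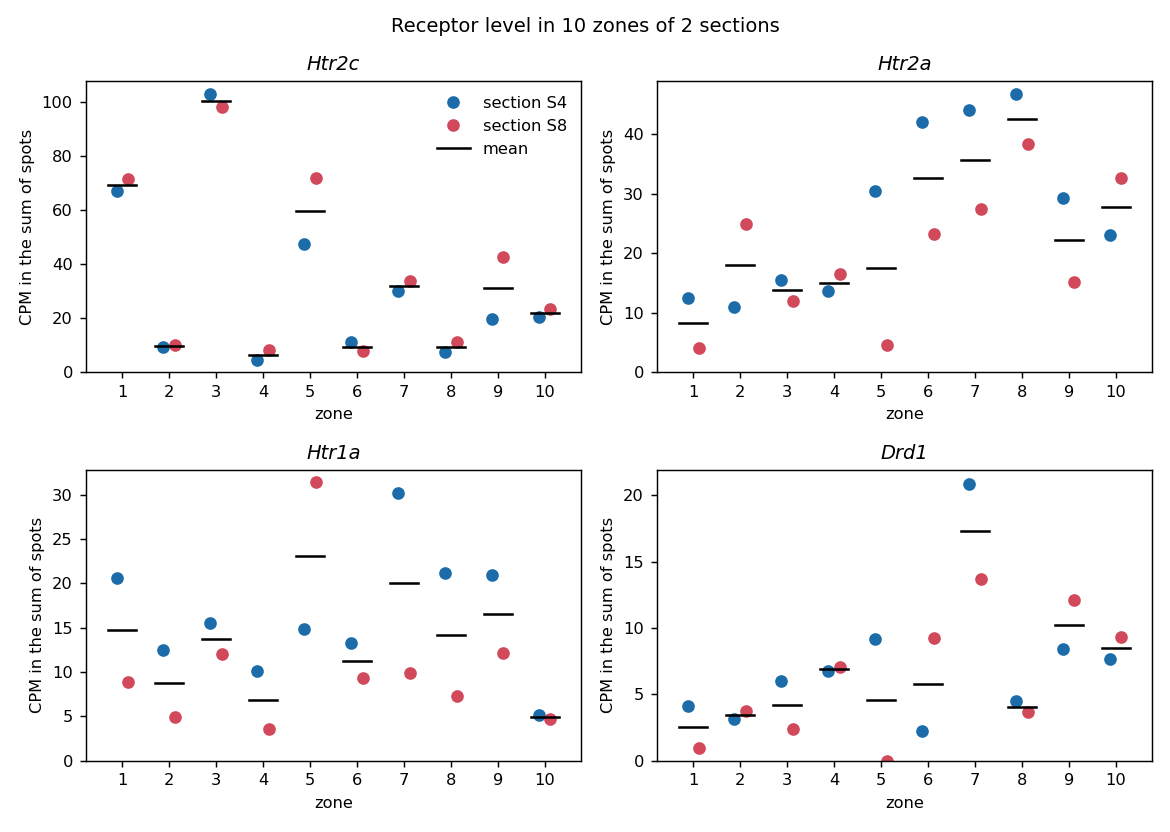
CPM of 4 receptors in 10 zones, 1 point per section and a line for the mean of 2. Htr2c stood at 98.3 to 102.9 CPM in zone 3, Htr2a was lowest in zone 1 and highest in zone 8, and both Drd1 values of zone 7 lay above those of the other zones.

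Htr1a ran from 4.89 ± 0.326 CPM in zone 10 to 23.1 ± 11.7 in zone 5, with no zone called (edgeR adjusted p = 0.266 for any difference, where 23.5% of all genes passed). Section S4 lay above S8 in 9 of 10 zones, zone 5 being the exception. Htr1b ran from 1.16 ± 0.0366 CPM in zone 4 to 11.2 ± 1.70 in zone 6 without a call (edgeR adjusted p = 0.0871 for any difference). Htr1f had 10 of its 32 counts in zone 4, at 5.65 and 5.91 CPM. Foxp2, a leading gene of that zone, is a marker of the corticothalamic-like class in which Htr1f was highest among cells. No other marker of that class was among the zone's 10 leading genes.

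Calls over the 5 tested members were 2 in zones 1 and 8, 1 in zones 2, 3, 4, 5, 6 and 7 and 0 in zones 9 and 10. The call in zone 7 was that of Drd1, which passed the filter on low counts only through that zone. Of all genes 2.57, 1.83, 1.86, 4.4, 3.13, 1.41, 0.724, 0.988, 0.0659 and 3.23% were called in zones 1, 8, 2, 3, 4, 5, 6, 7, 9 and 10, in that order. Against all other spots of the section, a comparison added after the data were seen, 9 of these 10 member calls were made. Htr2c in zone 5 was not among them (log2 0.72, SE 0.25, edgeR adjusted p = 0.135). There 3.54, 2.06, 2.93, 5.24, 3.64, 1.12, 0.914, 0.761, 0.0812 and 2.86% of all genes were called, in the same order of zones.

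Of the other receptors, Htr3a, which forms a ligand-gated ion channel known from cortical interneurons, had 22 of its 84 counts in zone 3 (log2 1.5004, SE 0.47, edgeR adjusted p = 0.029), a call lost with DESeq2 and without the section block. Htr7 (92 counts) differed among zones (edgeR adjusted p = 0.0361) with no single zone called, and Htr5a (156 counts) gave 0.151. Htr6 had 23 counts, Drd5 22, Htr4 18, Drd2 and Htr1d 12 each, Drd4 9 and Htr5b 6, and Drd3, Htr2b and Htr3b had 0.

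The wider list had 51 tested genes in the sections. Higher and lower calls were 1 and 2 in zone 1, 1 and 1 in zone 2, 3 and 3 in zone 3, 1 and 3 in zone 4, 3 and 1 in zone 5, 0 and 1 in zone 6, 1 and 0 in zone 7, 2 and 1 in zone 8 and 0 in zones 9 and 10. Of all genes, 2.57, 1.86, 4.4, 3.13 and 1.41% were called in either direction in zones 1, 2, 3, 4 and 5. In zones 6, 7, 8, 9 and 10 the shares were 0.724, 0.988, 1.83, 0.0659 and 3.23%. The list's median log2 difference ran from -0.21 to 0.16 over the zones, and that of all genes from 7.87e-05 to 0.02. In zone 3, where Htr2c was highest, Slc29a4, a membrane transporter that takes up serotonin and dopamine, was 4.99 times its mean elsewhere (edgeR adjusted p = 6.33e-05). Itpr1, the calcium channel that opens downstream of Gq, stood at 90.996 ± 1.82 there against 244.7 CPM (log2 -1.39, SE 0.14, edgeR adjusted p = 5.87e-10), and Plcb4 and Adcy2 were lower as well (log2 -1.88 and -1.13). In zone 8, where Htr2a was highest, Rgs4 stood at 634.4 ± 79.2 against 274.04 CPM (log2 1.29, SE 0.12, edgeR adjusted p = 1.84e-10). Zone 1 had less Rgs14 (log2 -1.51, SE 0.29), and zone 4 less S100a10 and Rgs7 (log2 -1.40 and -1.13). Plcb4 was higher in zone 2 (log2 1.12, SE 0.17), whose leading genes are of superficial layers, as it was in the superficial class of cells.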

How the data were processed

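Gene expression was measured in dissociated retrosplenial neurons and in brain sections. The authors' deposited tables give counts, as whole numbers for each gene in every cell or spot, and no normalization was visible in the values; whether a count is a read or a molecule is not given in the sources used here. Per the submitters' processing notes, Seurat, Space Ranger and the builds NCBIM37 and mm10 were used, with no role given. Animal and library names came from the deposited cell and spot annotations, whose file headers name them; dissection levels came from the cell names. Which section sample is S4 and which is S8 was not given. The members and lists were chosen with earlier results of these data known.

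Cells (lowest number of genes 2510) were clustered with scanpy 1.11.5 (2000 variable genes, 30 components, 15 neighbours, Leiden resolution 1) in Python 3.11.15, without the list genes. A marker counted for a cluster when present in at least 10% of its cells and at least 1 log2 unit above the mean log2 level of the other clusters, and 3 markers were needed for a name, a rule set after the data were seen. No doublet caller was run. Classes by each cell's own marker level gave the same class for 665 of 754 cells. Counts were summed per animal and class (at least 10 cells), per animal and dissection level (at least 5 cells) or per section and zone (at least 10 spots). The sums went through filterByExpr, TMM scaling and the quasi-likelihood F test of edgeR 4.0.16 (R 4.3.3; the fits were tested on simulated data), with DESeq2 1.42.0 as an alternative. SEs come from the log2 difference and the square root of F. Sums of 1 animal share its mouse, and deviations of same-animal sums from their class means correlated at 0.0859 on average (lowest 0.0327) against -0.0417 between animals; for sections these were 0.14 and -0.14. Levels by class and zone are TMM-scaled CPM; cluster and dissection values are scaled by total counts.

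Shares of cells at equal depth used cells thinned to 54512 counts (the 10th percentile), which left out 77 cells. Limits for a share of 0 use 3 counts. Spots: 162 barcodes occurred in both sections and were kept apart by library. All members are named; of the list, receptors are named, and of the other genes at most 3 called per role group and contrast, by size. Upstream windows come from RefSeq (GRCm38.p6), with 6 of 6 members matched.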

Additional observations from a re-analysis of the deposited data

How the results depend on the processing

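Alternatives covered scaling, filters, thinning, class definition, the block, each animal left out and, added after the data were seen, other seeds for the zones. Against 6 member calls between classes, sums per sample with the sample as block gave 2, and thinned counts gave 2. Both had fewer cells or counts per sum. The layer 6 IT-like and corticothalamic-like classes had too few cells for either fit, so their member calls could not be made there. Leaving out each animal gave 5 to 6, and no replicate block gave 5. Between zones, 10 calls became 6 with DESeq2, 7 with no replicate block (section), 5 with 1 other seed and 8 to 9 with the other 4 seeds; DESeq2 gave no adjusted p for Drd1 in zone 7 or Htr4 in ET-like neurons; between dissection levels 0 became 1 with DESeq2, and leaving out each animal gave 0. The Drd1a call in layer 6 IT-like, the Htr2c calls in Tnnc2 Scnn1a and layer 6 IT-like, and the Htr1f call in corticothalamic-like neurons held under all alternatives that could be fitted (10, 13, 10 and 10 of them). The Htr2c calls in zones 1 to 4 held under all 11 alternatives. The Htr2c call in ET-like neurons held under 8 of 12. It was lost with thinned counts, sums per sample, at least 20 cells per sum and against all other cells. The fits with thinned counts, sums per sample and at least 20 cells lacked the layer 6 IT-like and corticothalamic-like classes. Their average of the other classes was therefore a different one. No member called against the average of the classes or zones changed direction. The share of Tnnc2 Scnn1a cells with Htr2c, 60.9%, became 66.4% unthinned, 54.8% at 2 or more counts and 65% at the deeper thinning (85496 counts, 191 cells left out). Htr1b in the same class, 3.48%, became 4.92% unthinned and 6% at the deeper thinning. The causes were not tested. With at least 20 cells per sum only superficial, Tnnc2 Scnn1a and ET-like classes remained, and no section was left out, since 1 would remain. In cells thinned to 54512 counts, shares of a few percent rest on 1 to 4 cells.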
